A study of Mus musculus with 20 samples.

Results

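The 37 genes described here encode the machinery of mitosis: the kinases and cyclins that start it, proteins that shape the chromosomes, the kinetochore and its checkpoint, spindle motors, and the apparatus of cytokinesis. They were chosen by symbol from a list of G2/M, spindle and cytokinesis genes, with earlier results of these data known. They make up 37 of the 50559 genes in the count table. They were measured by RNA-seq of 20 whole mouse livers, 5 in each of 4 groups of vector and diet.

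All mice were Cideb fl/fl, so both alleles of Cideb, which encodes a lipid droplet protein of hepatocytes, carried loxP sites in every group. The livers called WT came from mice injected with AAV-TBG-GFP and those called KO from mice injected with AAV-TBG-Cre. The vectors were given to C57BL/6 mice at 6 weeks of age. TBG is a hepatocyte promoter, so Cre is made in hepatocytes, and the other cells of a KO liver keep Cideb. One pair of groups was fed a Western diet (WD) and the other CDA-HFD, a diet high in fat that lacks choline and supplies protein as free L-amino acids. The labels give 3 months for both diets, whereas the study's text describes a longer feeding on WD than on CDA-HFD, so diet cannot be told apart from feeding time, or from anything else that differed between the diet cohorts.

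Mitotic genes are switched on late in the cell cycle and are nearly silent in resting cells. In resting cells the DREAM complex holds many of them down by binding a short promoter element called the cell cycle genes homology region (CHR), and in dividing cells B-MYB and FOXM1 act at the same promoters, while the factor NF-Y binds CCAAT boxes beside it. Most hepatocytes of a healthy adult liver are quiescent, and mitotic transcripts in a liver sample can come from dividing hepatocytes or from dividing macrophages, stellate cells, bile duct cells and lymphocytes. In bulk samples such as these, fewer cells of a type and less RNA per cell cannot be told apart.

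The promoters of the members were searched for CHR and CCAAT words, as a description only. In the RefSeq promoters of GRCm38.p6, which run from 250 bases before to 50 bases after each start site, 33 of the 37 genes had an entry, with 35 promoters; Ccna2, Kif20a, Aurkb and Tpx2 had none. The CHR word TTTGAA, on either strand, stood in 27 of the 35 promoters (77.1%) against 17.9% of all 32851 promoters in the table. With TTTAAA, which reads the same on both strands, allowed as well, the share was 85.7% against 27.6%. A CCAAT word on either strand stood in 77.1% against 37.4%, and at least 2 of them in 48.6% against 11.7%. A CHR word of either form together with CCAAT was found in 74.3% of the member promoters and in 10.7% of all promoters. These matches describe letters in a window and say nothing of binding or of levels in these livers. The 120 bases upstream of the start site are printed below, 5′ to 3′ on the strand of the gene, for 6 members with both words in that stretch and for Aurka and Spc25, the pair with the smallest differences between KO and WT livers. Capitals mark TTTGAA or TTTAAA and CCAAT, with TTCAAA and ATTGG as their reverse complements.
Cdk1, chr10:69352913-69353032, minus strand: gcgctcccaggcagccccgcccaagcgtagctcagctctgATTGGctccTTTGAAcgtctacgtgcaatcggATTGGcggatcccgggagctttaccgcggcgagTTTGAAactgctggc
Ccnb1, chr13:100786487-100786606, minus strand: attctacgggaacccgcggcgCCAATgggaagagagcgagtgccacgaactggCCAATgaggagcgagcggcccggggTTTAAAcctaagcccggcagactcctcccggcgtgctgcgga
Plk1, chr7:122159315-122159434, plus strand: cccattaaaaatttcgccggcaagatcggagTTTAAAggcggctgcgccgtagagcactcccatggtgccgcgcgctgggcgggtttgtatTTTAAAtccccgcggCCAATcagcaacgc
Top2a, chr11:99024190-99024309, minus strand: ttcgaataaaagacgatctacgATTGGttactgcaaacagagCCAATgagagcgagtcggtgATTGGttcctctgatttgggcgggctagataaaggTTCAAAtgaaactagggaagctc
Cdc20, chr4:118437344-118437463, minus strand: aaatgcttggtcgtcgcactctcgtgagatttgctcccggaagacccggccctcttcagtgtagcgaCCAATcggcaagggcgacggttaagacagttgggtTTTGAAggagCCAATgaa
Ube2c, chr2:164769809-164769928, plus strand: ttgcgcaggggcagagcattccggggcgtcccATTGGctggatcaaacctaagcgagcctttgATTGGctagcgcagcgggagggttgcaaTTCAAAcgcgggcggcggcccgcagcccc
Aurka, chr2:172370571-172370690, minus strand: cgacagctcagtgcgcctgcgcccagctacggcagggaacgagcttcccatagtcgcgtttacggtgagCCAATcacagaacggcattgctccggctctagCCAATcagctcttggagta
Spc25, chr2:69206214-69206333, minus strand: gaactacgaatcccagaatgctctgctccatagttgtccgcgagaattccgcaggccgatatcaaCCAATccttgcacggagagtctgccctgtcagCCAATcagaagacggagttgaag
In Aurka and Spc25 both CCAAT words stood upstream, and the CHR word TTTGAA began after the start site, at base 33 in Aurka, where a TTTAAA also began at base 18, and at base 25 in Spc25. Such a position was not particular to them: in Cenpf, Kif23, Ccnb2 and Racgap1 a CHR word began at bases 3, 3, 5 and 6 after the start. Members with no CHR word in the 120 upstream bases were mixed in the test of KO against WT livers on CDA-HFD given below. Bub1, Smc2, Ncaph, Ttk, Nuf2, Ccnb2, Cenpf, Cenpe, Melk, Anln, Kif23 and Racgap1 were lower. Bub1b, Nusap1, Ndc80, Birc5, Cdca8, Kif4, Aurka and Spc25 did not pass. Some of these members, such as Smc2, Ttk and Ccnb2, held a CHR word elsewhere in the searched window. Of the 6 members printed with both words, Ccnb1 and Top2a were lower in KO livers on CDA-HFD. Cdk1, Plk1, Cdc20 and Ube2c did not pass. Ckap2l, Ect2, Prc1 and Kif11, which are not printed, also held both words in the 120 upstream bases of a promoter and were lower. A link between these words and the KO differences was not tested.

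The libraries held 11697049 to 16827147 reads on genes. The members together drew 727 to 6470 of these reads per liver, so counting error is large for single members, and a member's count in a liver ran from 0 to 1182. Levels are given as CPM, the count of a gene scaled to the same total of reads on genes in every library with TMM factors. Cideb checked the labels: it was at 4.78, 6.54, 7.57, 5.16 and 6.28 CPM in the 5 WT livers on WD and at 0, 0.389, 0, 0.152 and 0.235 CPM in the KO livers. On CDA-HFD, Cideb was at 2.22, 3.595, 2.76, 3.83 and 2.85 CPM in WT livers and at 0.209, 0, 0.399, 0.147 and 0.06 CPM in KO livers, so every KO liver lay below every WT liver. The labelled tissue fitted its markers, since 14 hepatocyte markers such as Alb and Apoa1 summed to 36450 to 119154 CPM per liver. One library stood apart: KO liver 5 on CDA-HFD had 41930 CPM of hepatocyte markers against 80897 to 114490 in the other 4 KO livers on that diet, and 2221 CPM of 14 macrophage markers against 678 to 833. Counts of members called on CDA-HFD, and several single genes, are given with and without it.

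The summed level of the 37 genes was lowest in KO livers on WD and highest in WT livers on CDA-HFD. It was 166, 185, 77.2, 129 and 152 CPM in WT livers on WD and 91.2, 60.4, 89.5, 55.2 and 71.3 CPM in KO livers. On CDA-HFD it was 271, 243, 249.7, 221 and 308 CPM in WT livers and 149.5, 158, 129, 115 and 183 CPM in KO livers. The mean of KO livers on CDA-HFD, 147 ± 26.2 CPM, was near that of WT livers on WD, 142 ± 41.6 CPM (SD, n = 5 each), and their ranges overlapped. WT livers on CDA-HFD had a mean of 258.5 ± 32.6 CPM and KO livers on WD one of 73.5 ± 16.4 CPM (SD, n = 5 each). The group means of 27 of the 37 genes followed this order: KO on WD, WT on WD, KO on CDA-HFD, WT on CDA-HFD. WT livers on CDA-HFD had the highest group mean for 36 genes and KO livers on WD the lowest for 36.

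**Figure D1:**
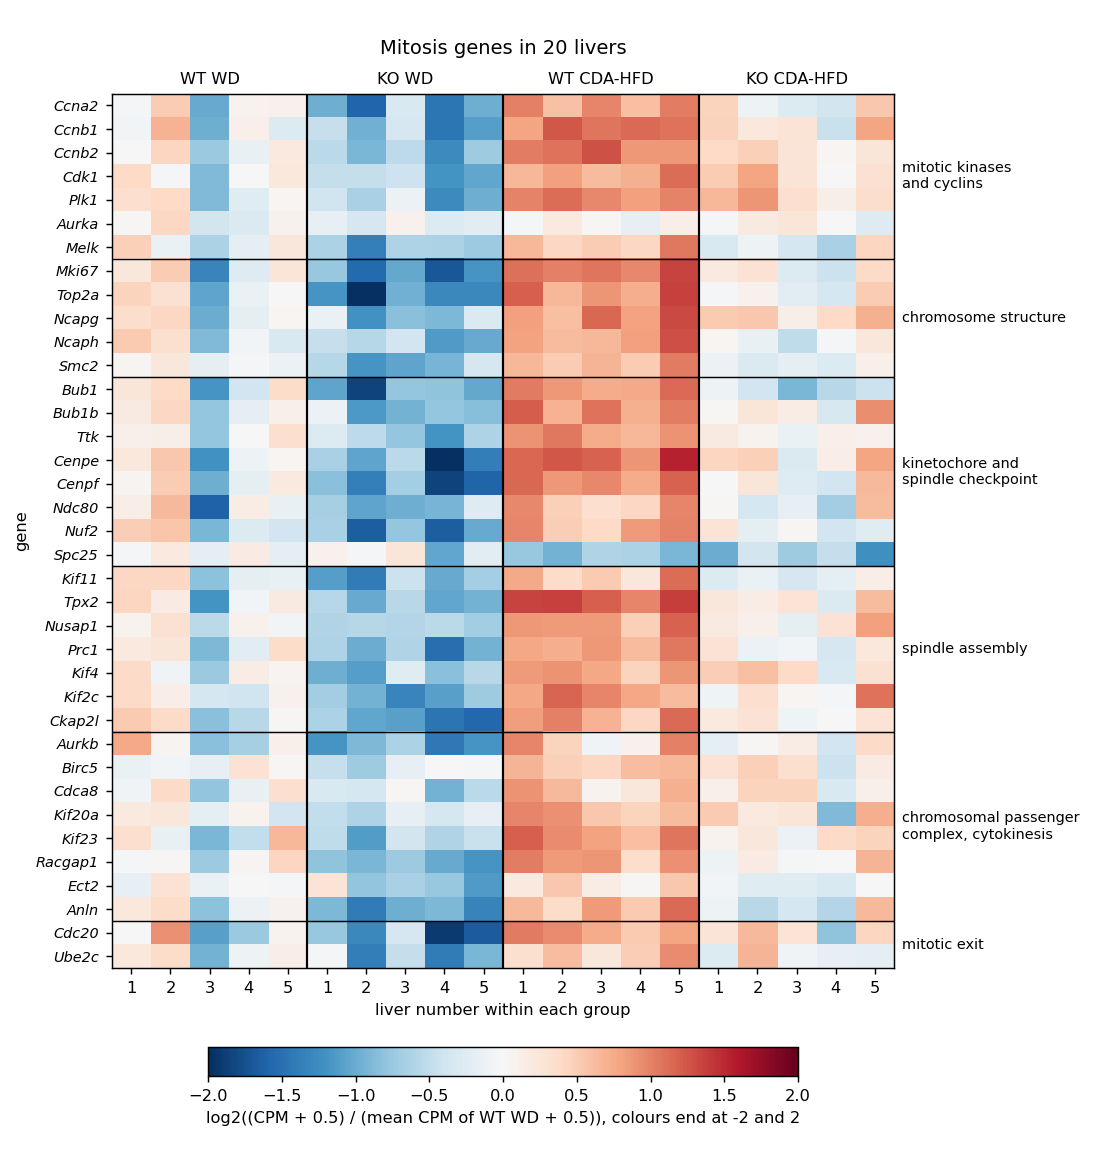
Level of each of the 37 genes (rows, in role groups) in each of the 20 livers (columns), as the log2 ratio of CPM + 0.5 to the WT WD mean + 0.5, with blue below and red above that mean. The group mean of WT livers on CDA-HFD is above that of WT livers on WD in 36 of the 37 rows, the mean of KO livers on WD is below it in 37, and Spc25 is the row where the mean of WT livers on CDA-HFD is below it.

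Livers of one group did not all stand at the same level, and the same livers stood out gene after gene. Among WT livers on WD, liver 3 was the lowest for 34 of the 37 genes and liver 2 the highest for 22. Liver 3 summed to 77.2 CPM, inside the KO range, while the other 4 WT livers all lay above every KO liver on WD. For 31 genes every KO liver on WD lay below WT livers 1, 2 and 5. That split leaves out WT livers 3 and 4, was picked with the values seen, and was not counted over all genes. With all 5 WT livers kept, 4 of the 37 genes were separated, against 1.09% of all genes tested. Among KO livers on CDA-HFD, liver 5 was the highest for 22 genes and liver 4 the lowest for 22. Relative to transcript length, summed over the exonic bases of GENCODE M21, the most abundant members were Spc25 with 2.62, Mki67 with 2.504 and Smc2 with 2.12 CPM per kilobase over the 20 livers. Ndc80 was the least abundant with 0.167 CPM per kilobase.

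On CDA-HFD, mitosis genes were lower in KO than in WT livers. By edgeR's quasi-likelihood test with Benjamini-Hochberg adjustment over all genes tested, the source of every adjusted p given here, 21 of the 37 genes were lower at an adjusted p under 0.05 and 0 were higher, where 7.29% of all 17204 genes tested were lower. The log2 fold change of KO against WT had a median of -0.83 over the 37 genes, against 0.01 over all genes, and ran from -1.83 for Bub1 to 0.04 for Spc25. It was negative for 36 of the 37. All 5 KO livers lay below all 5 WT livers for 18 genes, and 4.53% of all genes tested were separated this way. Without KO liver 5, 26 members passed, but so did far more of the table, with 21.8% of 17411 genes lower. Leaving out KO liver 1 took the count to 10, and leaving out either KO liver 3 or WT liver 5 took it to 13. Calls over the whole table fell as well in those fits, to 1.97%, 2.16% and 2.74% of all genes tested that were lower. In 10 of the 21 genes the call held whichever liver was left out: Ccnb2, Mki67, Top2a, Ncaph, Smc2, Bub1, Ttk, Nuf2, Tpx2 and Prc1. How many of all genes called lower held in every such fit was not counted. Ccna2 passed in 3 of the 10 such fits, and Ccnb1, Melk, Racgap1, Ect2 and Anln in 2. With all livers kept, scaling by library size alone lost the calls of Ccna2, Melk (adjusted p = 0.0567), Racgap1 (adjusted p = 0.0601) and Anln (adjusted p = 0.0662), and Melk was also lost with no filter on low counts (adjusted p = 0.0532).

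On WD the members also had lower values in KO than in WT livers, but none passed the threshold. Of the 37 genes, 30 had enough reads for the test and 7 did not (Bub1, Ccnb1, Kif2c, Melk, Ndc80, Nuf2 and Ttk). The count of members lower at an adjusted p under 0.05 was 0 of 30, in a comparison where 0.0631% of all 15848 genes were lower. At an unadjusted p under 0.05, 23 of the 30 were lower, against 5.62% of all genes tested. DESeq2 called 7 lower (Mki67, Top2a, Smc2, Cenpf, Ckap2l, Racgap1 and Anln), where it put 0.631% of all genes lower, and edgeR called 4 when WT liver 3 was left out, where 0.169% of all genes were lower. The median log2 fold change was -1.0 over the 30 genes, against 0.01 over all genes, from -1.59 for Ckap2l to -0.14 for Spc25. With no filter on low counts, the median over all 37 genes was -1.07, all 37 were negative and 2 passed. In that fit 0.0745% of all genes tested were lower. All KO livers lay below all WT livers for 4 of the 37 genes (Smc2, Kif2c, Racgap1 and Anln), against 1.09% of all genes tested.

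**Figure D2:**
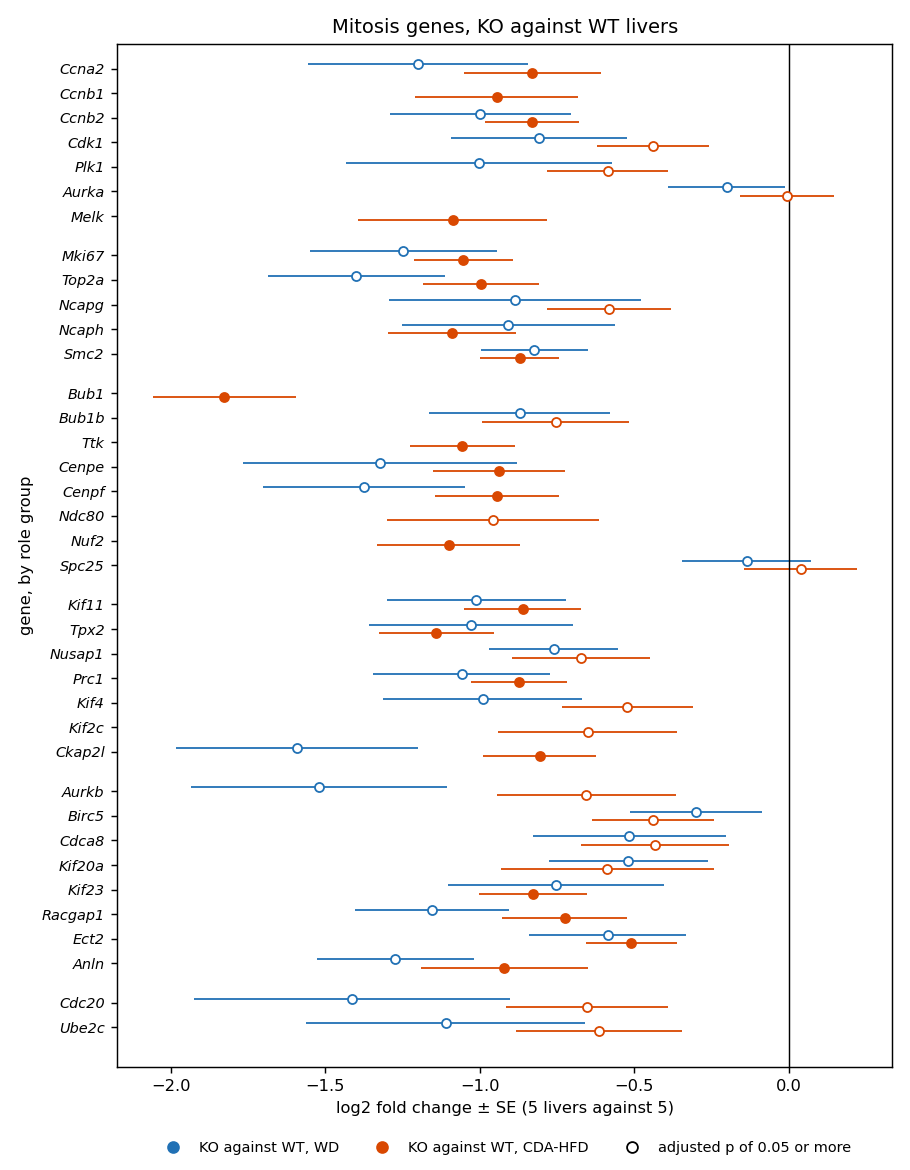
The log2 fold change of KO against WT livers with its standard error (x axis) for each gene (y axis, by role group), on WD in blue and on CDA-HFD in orange, 5 livers against 5. Filled points have an adjusted p under 0.05; the 21 filled points are all on CDA-HFD and all left of 0, and the 7 genes without a blue point were not tested on WD.

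The chromosome group held the markers used most often to count dividing cells. Mki67 encodes Ki-67, which coats mitotic chromosomes and keeps them apart. On WD, Mki67 was at 25.3, 31.04, 8.32, 17.95 and 25.6 CPM in WT livers and at 12.6, 7.001, 10.4, 6.31 and 9.32 CPM in KO livers. WT liver 3 lay within the KO range and the other 4 WT livers lay above it. On CDA-HFD Mki67 was at 47.2, 43.9, 45.9, 42.8 and 56.2 CPM in WT livers and at 24.9, 26.7, 17.9, 16.03 and 28.4 CPM in KO livers, with no overlap. Its log2 fold change was -1.25 ± 0.30 on WD (adjusted p = 0.204) and -1.05 ± 0.16 on CDA-HFD (adjusted p = 0.00831).

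Top2a encodes topoisomerase II alpha, which untangles sister chromatids. On WD, Top2a was at 18.2, 16.4, 6.05, 11.9 and 13.2 CPM in WT livers and at 5.52, 2.72, 6.52, 5.09 and 5.09 CPM in KO livers. Only WT liver 3 lay below a KO liver. On CDA-HFD the WT livers had 30.8, 21.1, 24.7, 22.1 and 34.6 CPM and the KO livers 12.8, 14.01, 11.1, 10.2 and 18.8 CPM, again without overlap. Top2a had a log2 fold change of -1.40 ± 0.29 on WD (adjusted p = 0.140) and -0.996 ± 0.19 on CDA-HFD (adjusted p = 0.0132).

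The other 3 genes of this group encode condensin subunits, which compact the chromosomes. Smc2, a core subunit of both condensins, is shown because its groups were separated on both diets, a choice made after its values were seen. On WD, Smc2 was at 11.8, 13.4, 9.99, 11.1 and 10.4 CPM in WT livers and at 7.45, 4.75, 5.22, 5.697 and 8.85 CPM in KO livers. On CDA-HFD, Smc2 was at 18.2, 16.4, 18.4, 16.3 and 23.8 CPM in WT livers and at 10.5, 9.19, 9.91, 9.26 and 12.2 CPM in KO livers. Every KO liver lay below every WT liver on each diet. The edgeR adjusted p was 0.140 on WD and 0.00798 on CDA-HFD, at log2 fold changes of -0.82 ± 0.17 and -0.87 ± 0.13. Ncaph was lower on CDA-HFD (-1.09 ± 0.21, adjusted p = 0.0136), and Ncapg did not pass (-0.58 ± 0.20, adjusted p = 0.0693). Without KO liver 5, Ncapg had -0.67 (adjusted p = 0.0248). Ncapg shares 13.4% of its exonic bases with Lcorl on the opposite strand.

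Of the 7 mitotic kinases and cyclins, 4 were lower on CDA-HFD (Ccna2, Ccnb1, Ccnb2 and Melk) and 3 did not pass (Cdk1, Plk1 and Aurka). Cdk1, the kinase that drives entry into mitosis, drew the most reads among them. On WD, Cdk1 was at 5.09, 3.697, 1.82, 3.77 and 4.45 CPM in WT livers and at 2.58, 2.57, 2.703, 1.37 and 1.57 CPM in KO livers. WT liver 3 was the only WT liver within the KO range. On CDA-HFD, Cdk1 was at 6.23, 7.05, 6.13, 6.45 and 8.798 CPM in WT livers and at 5.57, 6.91, 4.66, 3.75 and 4.74 CPM in KO livers, where KO liver 2 overlapped the WT range. Cdk1 had a log2 fold change of -0.81 ± 0.28 on WD (adjusted p = 0.336) and -0.44 ± 0.18 on CDA-HFD (adjusted p = 0.109).

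Ccna2, the cyclin of S phase and early mitosis, was at 3.45, 5.25, 1.51, 3.77 and 3.795 CPM in WT livers and 1.56, 0.856, 2.796, 0.988 and 1.57 CPM in KO livers on WD. KO livers 1, 3 and 5 lay above WT liver 3 and below every other WT liver. On CDA-HFD its levels were 7.69, 5.57, 7.46, 5.64 and 7.75 CPM in WT livers and 5.02, 3.296, 2.86, 2.65 and 5.4 CPM in KO livers, which did not overlap. Ccna2 had a log2 fold change of -1.20 ± 0.36 on WD (adjusted p = 0.286) and -0.83 ± 0.22 on CDA-HFD (adjusted p = 0.0324). The call was lost with scaling by library size alone (adjusted p = 0.0527), and Ccna2 shares 12.5% of its exonic bases with Exosc9 on the opposite strand.

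The B-type cyclins, partners of Cdk1 at mitotic entry, were both lower on CDA-HFD, with -0.95 ± 0.26 for Ccnb1 (adjusted p = 0.0370) and -0.83 ± 0.15 for Ccnb2 (adjusted p = 0.0122). For Ccnb2 the KO livers had 3.28, 3.49, 2.93, 2.43 and 2.88 CPM against 5.28, 5.57, 6.41, 4.699 and 4.71 CPM in WT livers. Ccnb1 was at 1.67, 1.33, 1.396, 0.662 and 2.22 CPM against 2.22, 3.24, 2.82, 2.95 and 2.85 CPM. Neither gene overlapped, but for Ccnb1 the highest KO liver (5) and the lowest WT liver (1) were equal to this precision. The call of Ccnb1 was lost with the replicate number as a block (adjusted p = 0.0589) and with the fit over all 20 livers (adjusted p = 0.0663). Plk1, the polo kinase of spindle and centrosome, had -0.59 ± 0.20 (adjusted p = 0.0637), and Melk, a kinase gene that is active in dividing cells, had -1.09 ± 0.31 (adjusted p = 0.0381).

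Bub1, a checkpoint kinase at the kinetochore, showed the lowest fold change of all members on CDA-HFD. It was at 3.24, 2.82, 2.54, 2.55 and 3.47 CPM in WT livers and at 1.18, 0.887, 0.466, 0.735 and 0.84 CPM in KO livers. The highest KO liver, at 1.18 CPM, lay well below the lowest WT liver, at 2.54 CPM, and the log2 fold change was -1.83 ± 0.23 (adjusted p = 0.00445). On WD it was too scarce to test, at 1.65, 1.89, 0.303, 0.893 and 1.82 CPM in WT livers and 0.368, 0, 0.559, 0.532 and 0.392 CPM in KO livers. WT liver 3 lay within the KO range there, and the exact two-sided permutation p was 0.0397.

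The kinetochore and checkpoint group had 5 of 8 genes lower on CDA-HFD (Bub1, Ttk, Cenpe, Cenpf and Nuf2), and Bub1b, Ndc80 and Spc25 did not pass. Cenpf, a large protein of the outer kinetochore, was at 6.27, 8.77, 2.8, 5.16 and 6.93 CPM in WT livers and 3.13, 2.02, 3.54, 1.29 and 1.64 CPM in KO livers on WD. KO livers 1 and 3 lay above WT liver 3 and below all other WT livers. On CDA-HFD, Cenpf was at 13.9, 11.4, 12.2, 10.3 and 14.2 CPM in WT livers and 5.92, 7.16, 4.92, 4.49 and 9.72 CPM in KO livers, where KO liver 5 came nearest to the WT range without entering it. Cenpf had a log2 fold change of -1.38 ± 0.33 on WD (adjusted p = 0.198) and -0.94 ± 0.20 on CDA-HFD (adjusted p = 0.0171). Cenpe, the kinetochore motor, had -0.94 ± 0.21 on CDA-HFD (adjusted p = 0.0203), and Ttk, the checkpoint kinase MPS1, had -1.06 ± 0.17 (adjusted p = 0.00927). Bub1b, which encodes the checkpoint protein BUBR1, had -0.75 ± 0.24 (adjusted p = 0.0528), and without KO liver 5 its adjusted p was 0.00145 at a log2 fold change of -1.01.

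Spc25, the most abundant member per kilobase, was the exception. It is a subunit of the NDC80 complex, which holds microtubules at the kinetochore, together with Ndc80, Nuf2 and Spc24. On WD, Spc25 was at 10.6, 12.6, 9.46, 12.3 and 9.49 CPM in WT livers and at 11.6, 10.7, 12.95, 5.01 and 9.24 CPM in KO livers, and on CDA-HFD at 6.23, 5.43, 7.02, 6.85 and 5.52 CPM in WT livers and 5.23, 8.302, 6.45, 7.65 and 4.38 CPM in KO livers. The KO and WT livers overlapped on both diets, with KO livers 4 and 5 below the WT range and KO liver 3 above it on WD. The log2 fold change of KO against WT was -0.14 ± 0.21 on WD (adjusted p = 0.857) and 0.04 ± 0.18 on CDA-HFD (adjusted p = 0.899). The sign on CDA-HFD turned with scaling by library size alone (-0.17) and without KO liver 2 (-0.07). Its partners in the complex had values of -1.10 ± 0.23 for Nuf2 (adjusted p = 0.0167) and -0.96 ± 0.34 for Ndc80 (adjusted p = 0.0767) on CDA-HFD. Without KO liver 5, Ndc80 had -1.33 (adjusted p = 0.00464). The fourth subunit, Spc24, which is not among the 37 genes, was higher in KO livers on CDA-HFD (0.83 ± 0.24, adjusted p = 0.0429), at 11.2, 16.6, 14.8, 10.9 and 5.88 CPM against 7.44, 5.29, 7.62, 6.98 and 5.897 CPM in WT livers. KO liver 5 lay within the WT range of Spc24 and the other 4 KO livers above it.

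Aurka, the Aurora kinase of centrosomes and spindle poles, was near level as well, and is shown for that, having been picked after its values were seen. It was at 3.69, 4.37, 3.81, 3.29 and 4.19 CPM in WT livers and at 3.69, 4.31, 4.52, 3.75 and 3.06 CPM in KO livers on CDA-HFD, ranges that overlapped almost fully. On WD the WT livers had 3.84, 5.16, 2.8, 2.98 and 4.01 CPM and the KO livers 3.31, 2.88, 4.01, 3.04 and 3.13 CPM. Aurka had a log2 fold change of -0.20 ± 0.19 on WD (adjusted p = 0.736) and -0.01 ± 0.15 on CDA-HFD (adjusted p = 0.983).

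**Figure D3:**
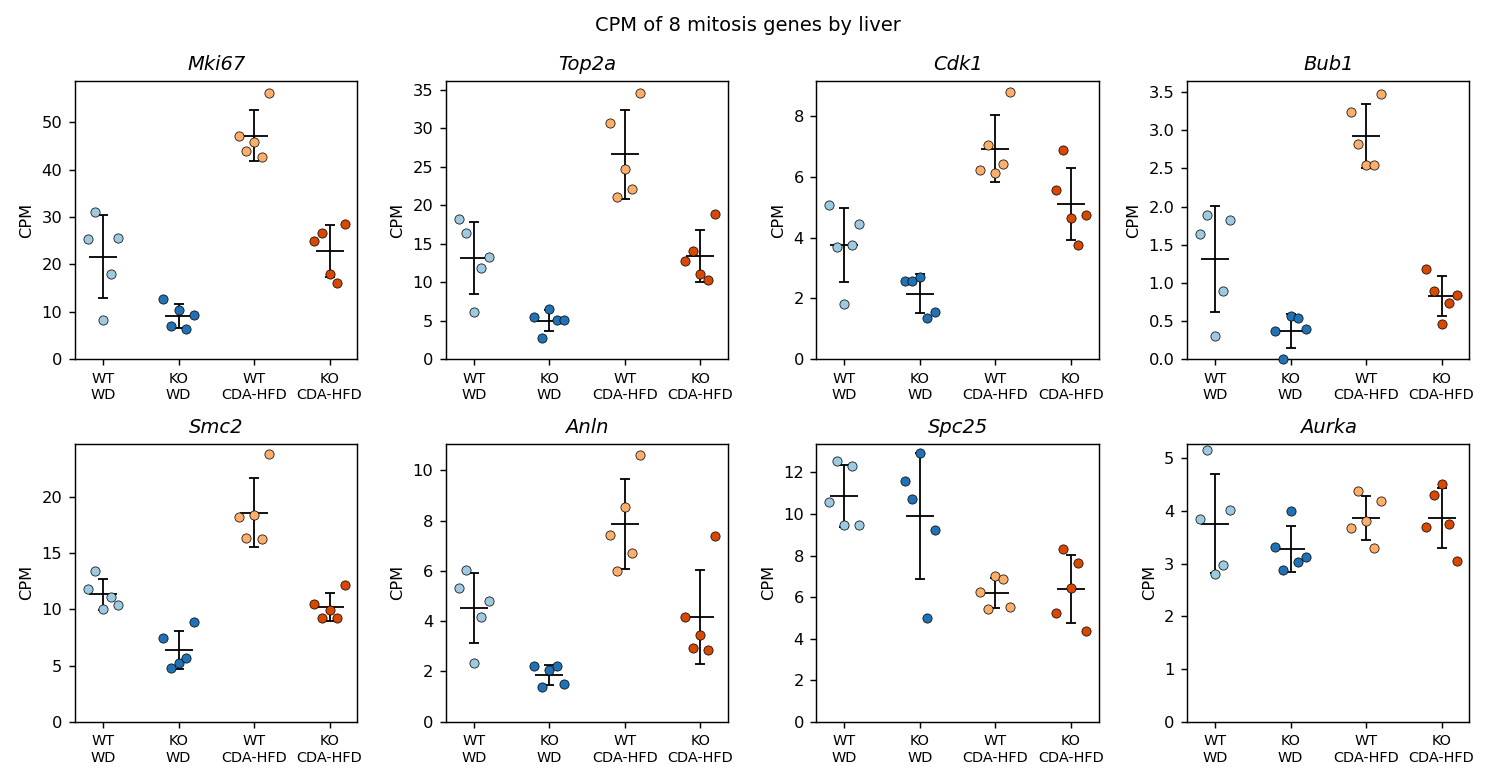
CPM of 8 members (one panel each, linear axes from 0) in every liver, with livers 1 to 5 from left to right in each group and black bars for the mean and SD of 5 livers. In every panel but that of Spc25 the mean of KO livers is lower than that of WT livers on both diets. For Aurka on CDA-HFD the means are almost equal, at 3.867 against 3.868 CPM. Spc25 falls from WD to CDA-HFD in WT livers, and Aurka stays between 2.80 and 5.16 CPM in every liver.

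Among the 7 spindle genes 4 were lower on CDA-HFD (Kif11, Tpx2, Prc1 and Ckap2l). Kif11 encodes the motor Eg5, which pushes the spindle poles apart. On WD, Kif11 was at 6.74, 6.71, 2.57, 4.27 and 4.38 CPM in WT livers and at 2.02, 1.56, 3.54, 2.203 and 2.897 CPM in KO livers. WT liver 3 lay within the KO range. On CDA-HFD, Kif11 was at 8.71, 6.49, 7.35, 5.84 and 11.3 CPM in WT livers and at 3.97, 4.44, 3.79, 4.26 and 5.46 CPM in KO livers, without overlap. Kif11 had a log2 fold change of -1.01 ± 0.29 on WD (adjusted p = 0.263) and -0.86 ± 0.19 on CDA-HFD (adjusted p = 0.0185).

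Prc1, which bundles microtubules of the central spindle, was at 5.09, 5.25, 2.12, 3.67 and 5.77 CPM in WT livers and 2.67, 1.95, 2.703, 1.22 and 2.04 CPM in KO livers on WD. KO livers 1 and 3 lay above WT liver 3, and the other WT livers lay above all KO livers. On CDA-HFD its levels were 7.82, 7.54, 8.396, 7.05 and 9.65 CPM in WT livers and 5.44, 3.99, 4.19, 3.38 and 5.16 CPM in KO livers, without overlap. Prc1 had a log2 fold change of -1.06 ± 0.29 on WD (adjusted p = 0.254) and -0.87 ± 0.16 on CDA-HFD (adjusted p = 0.0122). Prc1 shares 11.1% of its exonic bases with Rccd1 on the opposite strand.

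Tpx2, which activates Aurora A and nucleates spindle microtubules, was at 3.84, 3.095, 0.908, 2.58 and 3.14 CPM in WT livers and 1.66, 1.09, 1.68, 1.06 and 1.18 CPM in KO livers on WD, with WT liver 3 below every KO liver. On CDA-HFD its levels were 7.69, 7.75, 6.85, 5.84 and 7.89 CPM in WT livers and 3.28, 3.04, 3.39, 2.13 and 4.5 CPM in KO livers. There was no overlap on CDA-HFD, and the log2 fold change was -1.14 ± 0.19 (adjusted p = 0.00927) against -1.03 ± 0.33 on WD (adjusted p = 0.319).

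Ckap2l, a microtubule-binding spindle protein, had the lowest fold change on WD, where it was at 3.29, 2.92, 0.984, 1.29 and 2.19 CPM in WT livers and 1.196, 0.778, 0.746, 0.456 and 0.392 CPM in KO livers. KO liver 1 alone lay above a WT liver, liver 3. On CDA-HFD, Ckap2l was at 4.19, 4.79, 3.76, 3.02 and 5.28 CPM in WT livers and 2.51, 2.73, 1.995, 2.13 and 2.7 CPM in KO livers. Ckap2l had a log2 fold change of -1.59 ± 0.39 on WD (adjusted p = 0.207) and -0.81 ± 0.18 on CDA-HFD without overlap (adjusted p = 0.0201).

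Kif2c, a kinesin that depolymerizes microtubules at the centromere, was at 1.72, 1.38, 0.832, 0.794 and 1.31 CPM in WT livers and 0.552, 0.389, 0.186, 0.304 and 0.548 CPM in KO livers on WD, below the limit for the test but without overlap. On CDA-HFD, Kif2c was at 2.42, 3.31, 2.87, 2.42 and 2.14 CPM in WT livers and 1.12, 1.65, 1.26, 1.18 and 3.12 CPM in KO livers. KO liver 5 lay within the WT range there and the other 4 KO livers below it. Its log2 fold change on CDA-HFD was -0.65 ± 0.29 (adjusted p = 0.134), and without KO liver 5 it was -1.005 (adjusted p = 0.00327). Nusap1 and Kif4, both of which act on spindle microtubules, did not pass on CDA-HFD, with -0.67 ± 0.22 (adjusted p = 0.0624) and -0.52 ± 0.21 (adjusted p = 0.106). Without KO liver 5, Nusap1 had -0.88 (adjusted p = 0.00405) and Kif4 had -0.51 (adjusted p = 0.0910).

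The chromosomal passenger and cytokinesis genes had smaller fold changes, with a median of -0.62 over 8 genes on CDA-HFD. Kif23, Racgap1, Ect2 and Anln, which build the contractile ring and midbody, were lower. The passenger complex genes Aurkb (-0.66 ± 0.29, adjusted p = 0.133), Birc5 (-0.44 ± 0.20, adjusted p = 0.137) and Cdca8 (-0.43 ± 0.24, adjusted p = 0.218) did not pass. Kif20a did not pass either (-0.59 ± 0.34, adjusted p = 0.243), and 29.3% of its exonic bases are shared with Cdc23 on the opposite strand.

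Ect2, the exchange factor that activates RhoA at the cleavage site, was at 5.41, 7.57, 5.52, 6.15 and 5.91 CPM in WT livers and 7.45, 3.35, 3.73, 3.42 and 2.51 CPM in KO livers on WD. KO liver 1 lay within the WT range and the other 4 KO livers below it. On CDA-HFD its levels were 7.05, 9.09, 6.79, 6.24 and 9.13 CPM in WT livers and 5.85, 5.07, 5.12, 4.85 and 6.12 CPM in KO livers, without overlap but with KO liver 5 close to WT liver 4. Ect2 had a log2 fold change of -0.59 ± 0.25 on WD (adjusted p = 0.445) and -0.51 ± 0.15 on CDA-HFD (adjusted p = 0.0403). The call on CDA-HFD was lost with no filter on low counts (adjusted p = 0.0716), with the replicate number as a block (adjusted p = 0.0578) and with the fit over all 20 livers (adjusted p = 0.0829).

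Anln encodes anillin, the scaffold of the contractile ring. On WD, Anln was at 5.33, 6.02, 2.35, 4.17 and 4.82 CPM in WT livers and 2.21, 1.4, 2.05, 2.203 and 1.49 CPM in KO livers, without overlap. On CDA-HFD, Anln was at 7.44, 5.99, 8.56, 6.71 and 10.6 CPM in WT livers and 4.18, 2.92, 3.46, 2.87 and 7.38 CPM in KO livers. KO liver 5 lay within the WT range and the other KO livers below it. Anln had a log2 fold change of -1.27 ± 0.26 on WD (adjusted p = 0.140) and -0.92 ± 0.27 on CDA-HFD (adjusted p = 0.0427), and without KO liver 5 it was -1.24 on CDA-HFD (adjusted p = 0.000893).

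Cdc20 and Ube2c, the activator and the ubiquitin-conjugating enzyme of the anaphase-promoting complex (APC/C), serve the exit from mitosis, and neither passed on either diet. Cdc20 was at 2.82, 5.76, 1.06, 1.49 and 2.99 CPM in WT livers and 1.47, 0.856, 2.14, 0.3798 and 0.548 CPM in KO livers on WD. Levels on CDA-HFD were 6.36, 5.92, 5.08, 4.297 and 5.23 CPM in WT livers and 3.48, 4.69, 3.52, 1.397 and 3.96 CPM in KO livers. WT livers 3 and 4 lay within the KO range on WD, and KO liver 2 lay within the WT range on CDA-HFD. Its log2 fold change was -1.41 ± 0.51 on WD (adjusted p = 0.353) and -0.65 ± 0.26 on CDA-HFD (adjusted p = 0.103).

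Ube2c was at 1.96, 2.24, 0.605, 1.49 and 1.82 CPM in WT livers and 1.56, 0.311, 1.03, 0.304 and 0.626 CPM in KO livers on WD. Its levels on CDA-HFD were 2.16, 2.75, 1.99, 2.48 and 3.57 CPM in WT livers and 1.25, 2.92, 1.53, 1.397 and 1.38 CPM in KO livers. WT livers 3 and 4 lay within the KO range on WD, and KO liver 2 was the one KO liver within the WT range on CDA-HFD. Ube2c had a log2 fold change of -1.11 ± 0.45 on WD (adjusted p = 0.421) and -0.61 ± 0.27 on CDA-HFD (adjusted p = 0.130). Ube2c shares 22.8% of its exonic bases with Tnnc2 on the opposite strand.

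Other genes of the pathway were read from lists of known function. Of 40 further genes bound to the G2 and M phases, 39 were tested on CDA-HFD. Of the 39, 16 were lower and 2 higher in KO livers, against 7.29% and 8.19% of all genes tested. The median log2 fold change of the 39 was -0.67. The smallest adjusted p was that of Knl1, the kinetochore scaffold for BUB1 (-1.11 ± 0.18, adjusted p = 0.00927), and the pair that was higher was Spc24 and Ccnf, a cyclin-like F-box gene (0.86 ± 0.21, adjusted p = 0.0242). On WD, 0 of 34 tested passed, with a median of -0.59. An unadjusted p under 0.05 was found for 20 of the 34, against 10.7% of all genes tested. The smallest adjusted p on WD was that of Espl1, the protease separase (-1.50 ± 0.31, adjusted p = 0.140).

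A list of APC/C and cohesin genes that are transcribed all through the cycle had medians nearer to 0. Besides subunits of the 2 complexes, it held the APC/C activator Fzr1 and the checkpoint gene Bub3. Of its 21 genes, 2 were lower in KO livers on CDA-HFD, Anapc4 (-0.54 ± 0.11, adjusted p = 0.0160) and Stag1 (-0.34 ± 0.09, adjusted p = 0.0291). The median was -0.10. Such a count is near the 7.29% of all genes that were lower in that comparison. On WD the median was -0.05, 0 passed and 1 had an unadjusted p under 0.05, Cdc26 (0.28 ± 0.10, adjusted p = 0.350). A separate list held 11 genes of the mitotic entry switch, which set the phosphorylation of Cdk1 and its substrates. Of these, 10 were tested and 1 was lower on CDA-HFD, the PP2A inhibitor Arpp19 (-0.34 ± 0.09, adjusted p = 0.0262). The median of the 10 was -0.185 on CDA-HFD and -0.125 on WD. On WD 0 of 10 passed and Arpp19 had -0.25 ± 0.09 (adjusted p = 0.397), the only one with an unadjusted p under 0.05. These counts of 1 are near or below the shares over all genes, which are 7.29% lower on CDA-HFD and 10.7% at an unadjusted p under 0.05 in either direction on WD.

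Of 23 regulators of mitotic transcription, 3 were lower in KO livers on CDA-HFD, namely Rb1 (-0.44 ± 0.12, adjusted p = 0.0381), Rbl1 (-0.63 ± 0.13, adjusted p = 0.0142) and the NF-Y subunit Nfya (-0.56 ± 0.14, adjusted p = 0.0235). Another pair was higher, the repressor E2f8 (1.32 ± 0.33, adjusted p = 0.0258) and the pocket protein gene Rbl2 (0.36 ± 0.09, adjusted p = 0.0238). Over all genes 7.29% were lower and 8.19% higher on CDA-HFD, and the median of these 23 was 0.00. Foxm1 was at 3.69, 3.95, 4.14, 3.89 and 5.04 CPM in WT livers and 3.07, 3.04, 3.06, 2.35 and 4.5 CPM in KO livers on CDA-HFD, ranges that overlapped in KO liver 5 alone (-0.37 ± 0.18, adjusted p = 0.166). On WD 0 of 22 tested passed and 5 had an unadjusted p under 0.05, against 10.7% of all genes tested. Negative among the 5 were the DREAM subunit Lin54 (-0.31 ± 0.08, adjusted p = 0.248), Foxm1 (-1.03 ± 0.33, adjusted p = 0.319) and E2f3 (-0.24 ± 0.10, adjusted p = 0.422). Positive were E2f8 (0.94 ± 0.33, adjusted p = 0.333) and E2f4 (0.21 ± 0.09, adjusted p = 0.433).

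Genes of the G1 phase come ahead of the mitosis genes in the cycle. Of 8 G1 cyclins and kinases, 1 was lower on CDA-HFD, near the 7.29% of all genes, and this was Ccnd2 (-0.62 ± 0.13, adjusted p = 0.0162), and 0 passed on WD, where 1 had an unadjusted p under 0.05, Cdk6 (-0.28 ± 0.08, adjusted p = 0.263). Ccnd1, the cyclin of hepatocytes leaving quiescence, was at 268, 224, 284, 286 and 243 CPM in WT livers and 227, 272, 246, 281 and 144 CPM in KO livers on CDA-HFD (-0.16 ± 0.17, adjusted p = 0.508). On WD, Ccnd1 was at 95.8, 84.4, 58.04, 64.9 and 72.8 CPM in WT livers and 71.2, 35.5, 105, 23.02 and 24.5 CPM in KO livers (-0.54 ± 0.37, adjusted p = 0.624), and the livers overlapped on both diets. Of the 7 CDK inhibitors, 5 were tested on WD and 6 on CDA-HFD, and 0 passed on either diet, with 0 at an unadjusted p under 0.05. Cdkn1a, which encodes p21, had -0.77 ± 0.50 on WD (adjusted p = 0.605) and -0.53 ± 0.36 on CDA-HFD (adjusted p = 0.309), and Cdkn2d had the smallest adjusted p on WD (0.31 ± 0.19, adjusted p = 0.588).

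Between the diets, mitosis genes were higher on CDA-HFD than on WD in WT livers. The edgeR test put 30 of the 37 genes higher and 1 lower, in a comparison where 25.9% of all 16726 genes tested were higher and 25.2% lower. The median log2 fold change of CDA-HFD against WD was 0.95 over the 37 genes, against -0.003 over all genes. Scaling by library size alone moved the median over all genes to 0.42 and that of the 37 genes to 1.37, so values here are relative to the bulk of genes. For 22 genes every liver on CDA-HFD lay above every liver on WD, against 19.3% of all genes tested. Tpx2 had the highest fold change (1.40 ± 0.27, adjusted p = 0.00126), followed by Ccnb1 (1.40 ± 0.34, adjusted p = 0.00480) and Cenpe (1.33 ± 0.28, adjusted p = 0.00229). Mki67 had 1.12 ± 0.26 (adjusted p = 0.00401) and Top2a 1.01 ± 0.25 (adjusted p = 0.00502). The 6 genes that passed in neither direction were Aurka (0.03 ± 0.18), Ndc80 (0.92 ± 0.49), Aurkb (0.66 ± 0.38), Cdca8 (0.65 ± 0.29), Ect2 (0.32 ± 0.15) and Ube2c (0.67 ± 0.30).

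Spc25 was the 1 gene that was lower on CDA-HFD in WT livers, with a log2 fold change of -0.81 ± 0.13 (adjusted p = 0.000352). All 5 WT livers on CDA-HFD, from 5.43 to 7.02 CPM, lay below all 5 on WD, from 9.46 to 12.6 CPM. In KO livers it went the same way without passing (-0.63 ± 0.25, adjusted p = 0.102). KO liver 4 on WD, at 5.01 CPM, lay within the CDA-HFD range and the other KO livers on WD lay above it. The call changed with the fit over all 20 livers (adjusted p = 0.0324) and without KO liver 4 on WD (adjusted p = 0.0299).

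In KO livers the diets differed in the same direction. Of 33 genes tested, 25 were higher on CDA-HFD and 0 lower, where 9.19% of all 16387 genes tested were higher, and Bub1, Ccnb1, Melk and Ndc80 had too few reads. The median log2 fold change was 1.25, against 0.00 over all genes, and with no filter on low counts it was 1.23 over all 37. Without KO liver 5 on CDA-HFD, 25 members were higher as well, at a median of 1.16, where 9.03% of all genes tested were higher. For 21 of the 37 genes every KO liver on CDA-HFD lay above every KO liver on WD, against 8.09% of all genes tested. Kif2c had the highest fold change (2.05 ± 0.40, adjusted p = 0.00669), ahead of Nuf2 (1.80 ± 0.45, adjusted p = 0.0224) and Ckap2l (1.76 ± 0.28, adjusted p = 0.00239). Mki67 had 1.32 ± 0.22 (adjusted p = 0.00297) and Top2a 1.43 ± 0.24 (adjusted p = 0.00288). The 8 genes that did not pass were Aurka, Ncaph, Spc25, Birc5, Cdca8, Kif20a, Ect2 and Ube2c. The diet comparisons share their WT or KO livers with the KO comparisons and are given side by side with them only.

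**Figure D4:**
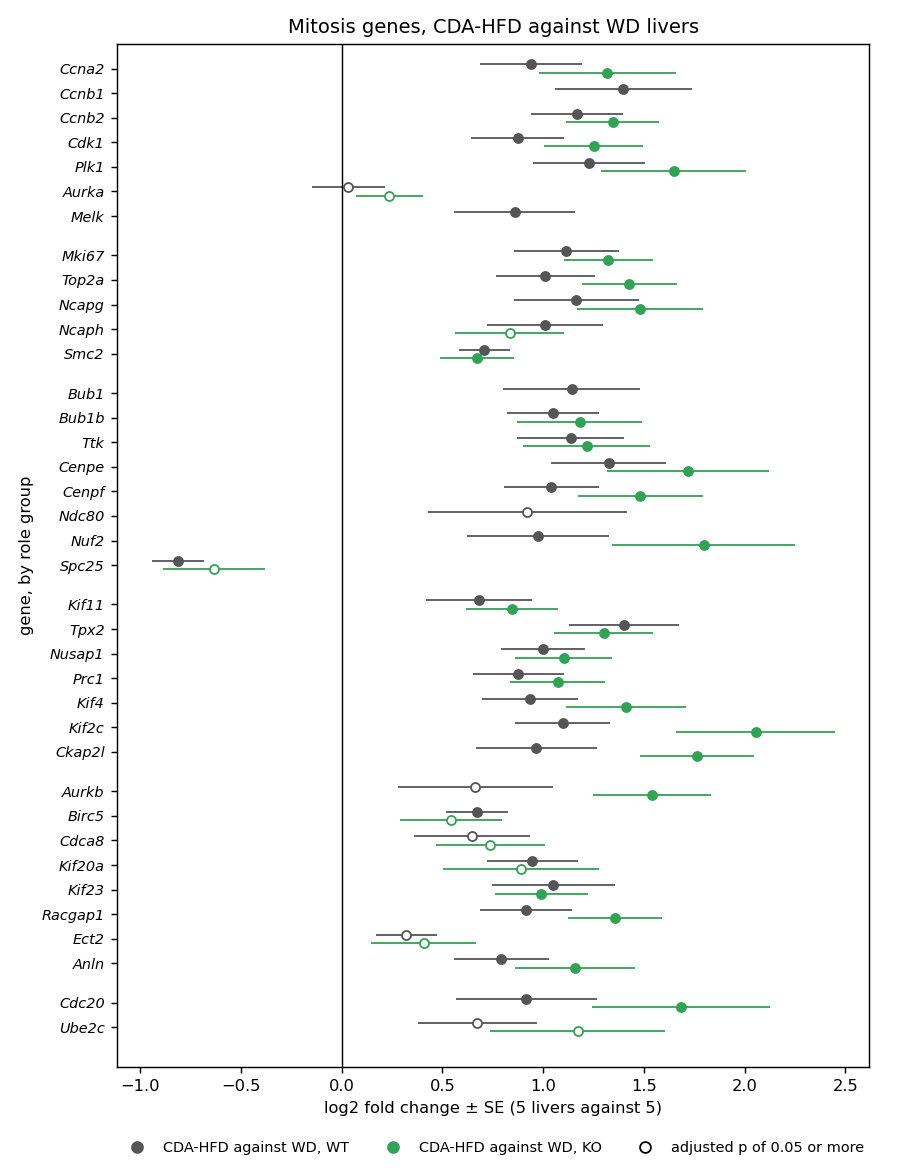
The log2 fold change of CDA-HFD against WD with its standard error (x axis) for each gene (y axis, by role group), in WT livers in grey and in KO livers in green, 5 livers against 5. Filled points have an adjusted p under 0.05; they lie right of 0 for 30 genes in WT and 25 in KO livers, and left of 0 for Spc25 in WT livers alone.

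Whether the KO effect itself differed between the diets was tested by the interaction of vector and diet over all 20 livers. Of the 37 genes, 0 passed in edgeR, where 0.556% of all 17804 genes tested did, and 0 had an unadjusted p under 0.05. With RLE scaling in edgeR 0 members had an unadjusted p under 0.05 as well, where 2698 of 17804 genes did. DESeq2 called 0 members and 434 genes over the whole table. It gave no adjusted p to several members, among them Kif2c, Aurkb and Nuf2, which had the highest interaction values in edgeR. The interaction, KO effect on CDA-HFD minus that on WD, had a median of 0.31 on the log2 scale and ran from -0.17 for Ncaph to 0.95 for Kif2c. For Kif2c it was 0.95 ± 0.46 (adjusted p = 0.327), for Mki67 0.20 ± 0.36 and for Top2a 0.41 ± 0.36. Ncaph was at 3.21, 2.75, 0.908, 1.98 and 1.61 CPM in WT livers and 1.38, 1.25, 1.49, 0.684 and 0.783 CPM in KO livers on WD, and at 4.004, 3.53, 3.59, 4.095 and 5.802 CPM in WT livers and 2.16, 1.84, 1.33, 2.06 and 2.52 CPM in KO livers on CDA-HFD. Without KO liver 5 on CDA-HFD, 0 members passed as well, at a median of 0.19. At these standard errors, modest differences of the KO effect between the diets were not detectable.

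Markers of other liver cells moved beside the mitosis genes, and their part in these results was not tested. On CDA-HFD, 7 of 14 macrophage markers were lower in KO livers, 6 of the 6 neutrophil markers tested, 3 of 11 stellate cell markers, 0 of 7 cholangiocyte, 0 of 8 endothelial and 0 of 11 lymphocyte markers, while 2 of 14 hepatocyte markers were higher. Of all genes tested there, 7.29% were lower and 8.19% higher. Summed macrophage markers ran from 1856 to 3794 CPM in WT livers and from 678 to 2221 CPM in KO livers. Summed cholangiocyte markers ran from 365 to 791 CPM in WT livers and from 68.8 to 658 CPM in KO livers. KO liver 5 held the top value of both lists in its group and entered the WT range, and it also had the highest mitosis sum of the KO livers (183 CPM), below the lowest WT liver (221 CPM). Without it, the median log2 fold change of the 37 genes between KO and WT livers was -0.93. Summed stellate cell markers ran from 2410 to 3909 CPM in WT livers and from 1344 to 4099 CPM in KO livers, and neutrophil markers from 33.03 to 79.3 and from 9.78 to 21.8 CPM.

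On WD, 0 markers of any of the 7 cell types passed between KO and WT livers, and 3 of 14 macrophage, 2 of 10 stellate cell, 1 of 8 endothelial, 1 of 3 neutrophil and 0 of the tested hepatocyte, cholangiocyte and lymphocyte markers had an unadjusted p under 0.05, against 10.7% of all genes tested. The log2 fold change was negative for all 14 macrophage markers, with a median of -0.52 against 0.01 over all genes. The median was -0.22 over the stellate cell markers, -1.33 over the 3 neutrophil markers tested and 0.16 over the hepatocyte markers. Summed macrophage markers ran from 449 to 1169 CPM in WT livers and from 383 to 660.1 CPM in KO livers. WT liver 3, which had the lowest mitosis sum of its group, also had the lowest macrophage, stellate cell and cholangiocyte sums and the highest hepatocyte sum. Summed lymphocyte markers stayed between 5.22 and 34.5 CPM in the 20 livers, and the T cell gene Trbc2 was listed at 0 in all of them.

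Between the diets the markers moved too. In WT livers 8 of 14 macrophage, 10 of 11 stellate cell, 7 of 7 cholangiocyte, 6 of 10 lymphocyte and 4 of 6 neutrophil markers were higher on CDA-HFD than on WD, and 9 of 14 hepatocyte, 6 of 8 endothelial and 2 of 14 macrophage markers were lower, where 25.9% of all genes were higher and 25.2% lower. In KO livers 6 of 14 macrophage, 4 of 11 stellate cell, 3 of 6 cholangiocyte, 5 of 9 lymphocyte and 1 of 3 neutrophil markers were higher, 1 of 14 hepatocyte markers was lower and 0 of 8 endothelial markers passed, where 9.19% of all genes were higher and 7.85% lower. Summed cholangiocyte markers ran from 34.1 to 165 CPM in the WT group and from 37.5 to 84.6 CPM in the KO group on WD.

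**Figure D5:**
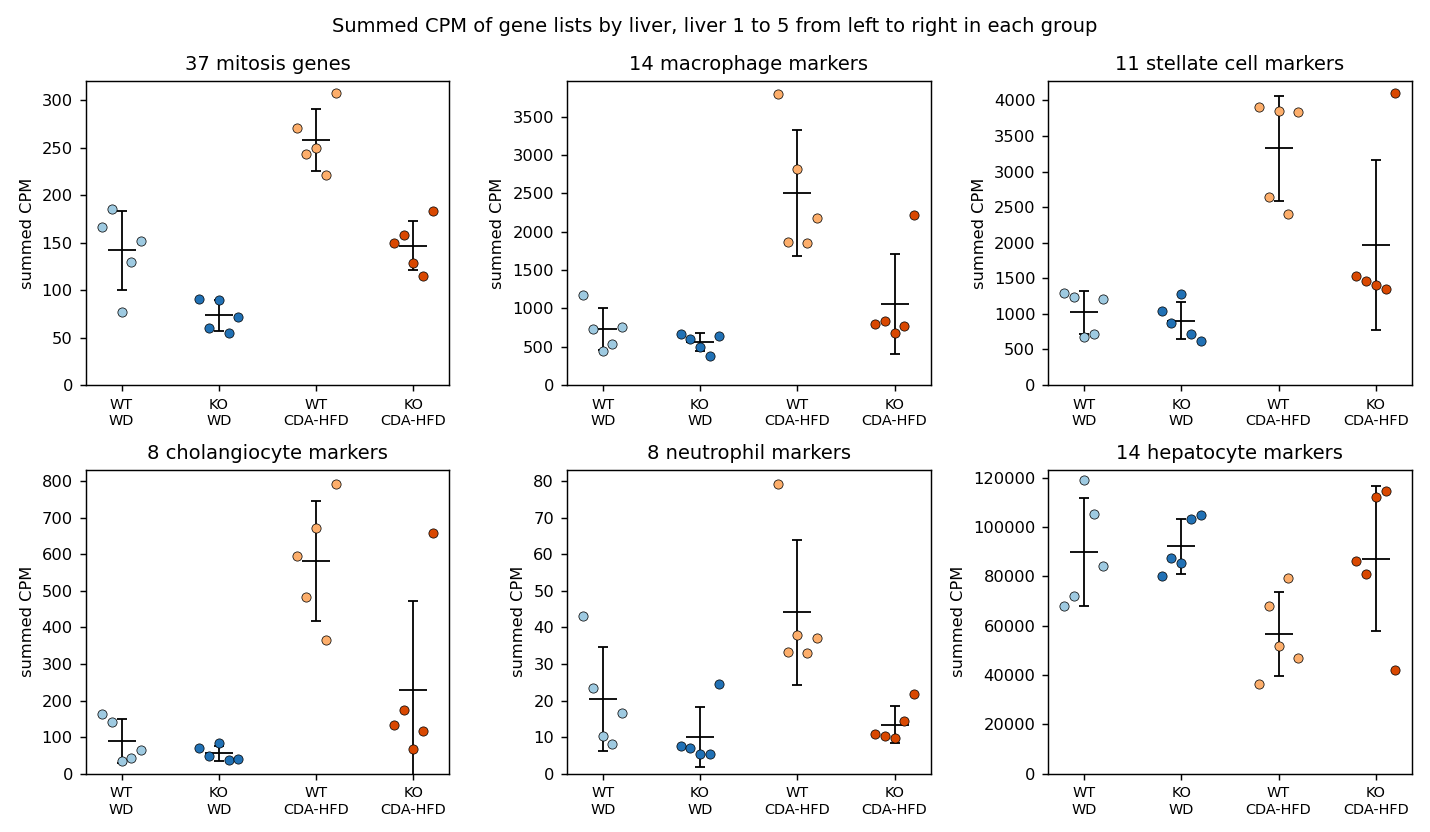
Summed CPM of the 37 mitosis genes and of 5 lists of cell type markers (one panel each, linear axes from 0) in every liver, livers 1 to 5 from left to right in each group, with the mean and SD of 5 livers in black and SD bars ending at the axis where they pass 0. KO liver 5 on CDA-HFD stands at 2221 CPM of macrophage markers, above the other 4 KO livers, and its mitosis sum of 183 CPM stays below all WT livers on that diet.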

How the data were processed

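The authors deposited raw read counts per gene symbol, aligned to mm10, for 20 whole-liver RNA samples; the versions of the aligner and counter are not given in the sources used here. The labels name a directional library kit and the study's methods another kit, so whether counting used strand is not known, and 12 members share exonic bases with another gene. The 5 closing entries of reads not assigned to a gene took 50.3% to 57.02% of the reads and were left out. Depth on genes was 11697049 to 16827147 reads, and counting error limits members with few reads. Groups came from the labels, which number 5 livers in each group; should they not be separate mice, p-values measure only the spread between these samples. No pair of libraries within a group agreed within sampling noise (chi-square per degree of freedom 6.24 to 110.25 over 40 pairs).

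Counts were tested across all genes with edgeR 4.0.16 in R 4.3.3 (filterByExpr, TMM scaling, quasi-likelihood F test) and Benjamini-Hochberg adjustment at 0.05, each pair of groups in its own fit of 10 livers and the interaction over 20. The scripts were checked on simulated counts. Single members were compared by an exact two-sided permutation test of mean CPM over all splits with scipy 1.17.1. Alternatives were RLE scaling, library size only, DESeq2 1.42.0, no filter, a replicate block, one fit of 20 livers, and leaving out each liver. Exonic lengths came from GENCODE M21 and promoters from RefSeq on GRCm38.p6.

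The members, lists of pathway genes and markers, and tests were chosen with earlier results of these data known. Genes described in full were Mki67, Top2a, the 2 members of each role group with the highest mean CPM, the members with the highest and lowest fold change in each comparison and any called against the majority; of each pathway list, the gene with the smallest adjusted p in each KO comparison, and Cdkn1a, Ccnd1 and Foxm1.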

Additional observations from a re-analysis of the deposited data

Results flagged for a closer look

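Within each group of 5 livers, the highest or lowest liver was set against the other 4 by the gap to its nearest neighbour over the whole range, with Dixon's limit of 0.71. Of 152 groups of values examined, 8 passed, where chance passes about 1 in 20, or 7.6.

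Melk in KO liver 2 on WD was at 0.0778 CPM against 0.392 to 0.466 in the other 4 livers, with a ratio of gap to range of 0.808. Bub1b in KO liver 1 on WD was at 3.04 CPM against 1.25 to 1.75 (0.719), and Ect2 in the same liver was at 7.45 CPM against 2.51 to 3.73 (0.753).

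In KO livers on CDA-HFD, Kif2c in liver 5 was at 3.12 CPM against 1.12 to 1.65 (0.734) and Racgap1 in liver 5 at 5.04 CPM against 2.72 to 3.36 (0.724). Ube2c in liver 2 was at 2.92 CPM against 1.25 to 1.53 (0.834). Liver 5 of the WT group on CDA-HFD stood above its group for Ncaph, at 5.80 CPM against 3.53 to 4.10 (0.749), and for Smc2, at 23.8 CPM against 16.3 to 18.4 (0.715).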

How the results depend on the processing

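The direction of the median over the mitosis genes was the same under every alternative run in all 5 comparisons. The count of members lower in KO livers on WD was 0 in the edgeR fit of 10 livers and 7 by DESeq2. It was 2 with no filter on low counts and 2 with one fit of 20 livers. The shares of all genes tested that were lower in these 4 settings were 0.0631%, 0.631%, 0.0745% and 0.135%. When each liver was left out in turn the count was 0 to 4 (4 without WT liver 3 and 1 without KO liver 5). In those 2 fits 0.169% and 0.1% of all genes tested were lower. On CDA-HFD the count of 21 ranged from 10 to 26 when each liver was left out. Scaling by library size alone moved the median diet difference in WT livers from 0.95 to 1.37, and that over all genes to 0.42. In KO livers 1 gene, Spc25, was lower on CDA-HFD with one fit of 20 livers, and 0 to 1 were when each liver was left out. Between KO and WT livers, the log2 fold change of Spc25 ranged from -0.256 to 0.024 on WD and from -0.073 to 0.152 on CDA-HFD when each liver was left out, changing sign without KO liver 4 on WD and without KO liver 2 on CDA-HFD. By library size alone it was -0.175 on CDA-HFD and -0.020 in the interaction, also of the other sign. The interaction of Ncaph ranged from -0.389 to 0.016, changing sign without WT liver 3 on WD. The cause was not tested.

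With the replicate block, 0 members were lower on WD and 21 on CDA-HFD. Of all genes tested in these fits, 0.0126% were lower on WD and 7.27% on CDA-HFD. Between diets, 33 members were higher and 1 lower in WT livers, where 8343 of 16726 genes passed in either direction. In KO livers 23 members were higher, where 2044 of 16387 genes passed in either direction. In the interaction 0 members passed, and 8 of 17804 genes did. The 21 on CDA-HFD gained Bub1b (adjusted p = 0.0443) and Ndc80 (0.0397) and lost Ccnb1 (0.0589) and Ect2 (0.0578). Same-numbered livers deviated from their group means with correlations from -0.367 to 0.349, so the numbers were not taken to pair the livers. Scarce members, with as few as 0 reads in a liver, are limited by depth.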
